A study of Glycine max with 6 samples.

Results

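VSPA is the soybean gene for the alpha subunit of the vegetative storage protein, and its transcript was followed here in developing cotyledons, the storage organs of the seed, of plants with suppressed seed storage proteins. Members were all soybean probe sets to which the platform annotation gives the symbol VSPA or VSPB. There were 8 VSPA probe sets among 37593 soybean probe sets, and 4 of the 8 were detected, against 27460 detected in all. No probe set carries the symbol VSPB. The gene table lists VSPB as an older name of LOC547820, and the 3 probe sets of that gene are described alongside, none of them detected. The gene was selected on its signal difference between the RNAi lines and the control, already known, so its values in that contrast are a description and carry no test.

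Total RNA was taken from cotyledons of 150 mg and hybridised to an Affymetrix soybean array. The control was nontransgenic and is labelled jack in 1 sample description. RNAi line 1 and RNAi line 2 were transgenic, independent of each other, and carried an RNAi construct against storage proteins. The labels give neither the construct's target genes nor its promoter, and they state no age, number of plants or pooling. Each of the 3 samples was measured on 2 arrays that the labels call technical replicates, so each line and the control is 1 sample, and the number of samples limits the precision of every difference below.

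Vegetative storage proteins are vacuolar glycoproteins of leaves, stems and pod walls, where they hold amino nitrogen that is later moved to growing seeds. They belong to the haloacid dehalogenase family of phosphatases. In soybean leaves their transcripts are known to accumulate after wounding, after jasmonate treatment, with sugar and nitrogen supply, and when developing pods are removed. The protein is made of an alpha and a beta subunit, VSPA and VSPB. A larger vegetative storage protein of leaves, VSP94, is a lipoxygenase. Seeds by contrast store nitrogen mainly in the globulins glycinin and beta-conglycinin.

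Signals are the linear probe set values as deposited, which had the same trimmed mean of 500.1 on every array. Background on each array was the 95th percentile of the 23350 non-soybean probe sets of other organisms on it, between 68.4 and 91.7, and between 26459 and 27396 soybean probe sets exceeded it. A probe set was detected where both arrays of at least 1 sample exceeded background. Differences are on the log2(signal + 16) scale, which understates the change of dim probe sets. The arrays were of cotyledon, with glycinin and beta-conglycinin probe sets among the brightest: the summed signal of 9 glycinin probe sets was 379695 to 388499 on the control arrays and 200358 to 261200 on the RNAi arrays of both lines. The summed signal of 5 beta-conglycinin probe sets was 173101 to 177592 in the control and 56710 to 65034 in the lines. In bulk samples, fewer cells of a type and less RNA per cell cannot be told apart.

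In the cotyledons with suppressed globulins, 3 of the 4 detected VSPA probe sets were higher in both RNAi lines than in the control, and the fourth stayed at the edge of background. The log2 differences of the 4 were 2.37, 2.04, 0.98 and -0.02. On all 3 of the higher probe sets, each of the 4 RNAi arrays exceeded both control arrays. That pattern held for 25.9% of all 27460 tested probe sets, and the reverse, with all RNAi arrays lower, for 23.6%. Since the gene was chosen for this contrast, nothing is read from its count against that background.

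The brightest VSPA probe set, GmaAffx.89772.6.A1_s_at, had signals of 441 and 460 on the control arrays, 932 and 877 on the arrays of line 1, and 1001 and 813 on those of line 2. All 6 values lay well above background, and the lowest RNAi array was 1.77 times the highest control array. The RNAi lines averaged 906 ± 2.1 (SD, n = 2 lines) against a control mean of 451, a log2 difference of 0.98 and a fold of 1.97 on the pseudocount scale. The lines differed from the control by almost the same amount, 0.98 each. By size of the rise, this probe set ranked 797 of 27460.

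GmaAffx.89772.17.S1_s_at had the largest difference of the VSPA probe sets. Its signals were 108 and 89.6 in the control, 531 and 620 in line 1, and 636 and 519 in line 2. The control arrays sat just above background and the RNAi arrays far above it, the lowest at 4.82 times the highest control array. The lines averaged 577 ± 1.7 (SD, n = 2 lines) against a control mean of 98.7, a fold of 5.16 on the pseudocount scale. The difference from the control was 2.37 in line 1 and 2.37 in line 2. It ranked 24 of 27460 by the size of the rise.

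Gma.5793.1.S1_s_at had signals of 91.1 and 59.7 in the control, 330 and 411 in line 1, and 388 and 295 in line 2. Of the control arrays, 1 was above its background and the other below, so this probe set counted as detected through the RNAi lines alone. The lines averaged 356 ± 20.0 (SD, n = 2 lines) against a control mean of 75.4, a fold of 4.1 on the pseudocount scale. The log2 difference was 2.09 in line 1 and 1.98 in line 2, and the rank by size of the rise was 54. Its control arrays differed from each other by 0.50 on the log2 scale, the widest technical gap of the 4 detected VSPA probe sets. Without the first control array the difference was 2.29, and without the second it was 1.79.

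GmaAffx.89772.6.S1_s_at had signals of 93.8 and 88.6 in the control, 79.6 and 99.1 in line 1, and 90.1 and 91.6 in line 2. Control and RNAi arrays overlapped fully. The lines averaged 90.1 ± 1.06 (SD, n = 2 lines) against a control mean of 91.2, a log2 difference of -0.02. It lies just inside the detection rule: 5 of the 6 values exceeded background, and the sixth, 91.6, was just under its array's bound of 91.7.

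The probe sets of the same gene thus gave different answers. The difference from the control at GmaAffx.89772.17.S1_s_at exceeded that at GmaAffx.89772.6.A1_s_at by 1.39 on the log2 scale, and that at GmaAffx.89772.6.S1_s_at by 2.39. Gma.5793.1.S1_s_at and GmaAffx.89772.17.S1_s_at were the closest, 0.33 apart. GmaAffx.89772.6.A1_s_at and GmaAffx.89772.6.S1_s_at were 1.00 apart although both were designed from the same source record. In the naming of this array, A and S mark probe sets selected against opposite orientations of such a record. Which orientation of this record carries the VSPA coding strand was not settled here.

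All 4 detected VSPA probe sets have the suffix _s_at, which on this array marks probes shared by several transcript records. Of the 4 not detected, 1 has that suffix and 3 the plain _at. Over all soybean probe sets, 9.6% of those tested and 6.9% of those not detected are _s_at. Signal at the shared probe sets can come from transcripts of VSPA and of close relatives, and these values do not tell them apart. The part of such relatives in the disagreement was not tested.

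The spread between technical replicate arrays was as follows, while the spread between plants was not measured. The gap between the arrays of one sample ranged from 0.02 to 0.50 on the log2 scale over the 4 probe sets and 3 samples, against a median of 0.15 over all tested probe sets. In line 2, the first array was the higher at GmaAffx.89772.6.A1_s_at, at GmaAffx.89772.17.S1_s_at and at Gma.5793.1.S1_s_at, by 0.30, 0.29 and 0.38. In line 1 the second array was the higher at GmaAffx.89772.17.S1_s_at and Gma.5793.1.S1_s_at, and the lower at GmaAffx.89772.6.A1_s_at.

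The 4 VSPA probe sets that were not detected lay below background on all but 1 of their 24 values, over a range of 2.59 to 74.9. The nearest to detection was GmaAffx.33787.1.S1_at, with 32.4 and 36.2 in the control, 34.1 and 43.0 in line 1, and 74.9 and 43.5 in line 2. Its value of 74.9 was just over that array's bound of 74.2, and the other array of the line did not follow. GmaAffx.63840.1.S1_at gave 53.2 and 15.5 in the control, 68.5 and 3.14 in line 1, and 56.5 and 49.6 in line 2. These values scattered as widely within a sample as between samples.

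The remaining pair was designed from one source record. GmaAffx.89772.7.A1_at gave 4.02 and 5.9 in the control, 18.9 and 11.5 in line 1, and 44.1 and 9.39 in line 2. GmaAffx.89772.7.A1_s_at gave 8.94 and 12.4, then 28.3 and 2.59, then 20.4 and 3.71. Values this far under background have no usable order, and no fold is given for any of these 4 probe sets.

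The transcript of the beta subunit was not detectable. At Gma.1822.1.S1_s_at the signals were 3.48 and 4.74 in the control, 7.46 and 47.9 in line 1, and 54.7 and 53.9 in line 2. GmaAffx.89772.8.S1_at read 6.53 and 11.3 in the control, 39.6 and 17.2 in line 1, and 24.9 and 12.4 in line 2. GmaAffx.89772.8.S1_x_at read 9.56 and 33.7, then 2.47 and 19.1, then 41.8 and 25.9. None of these 18 values exceeded background, which bounds the VSPB signal on each array but does not show that the transcript was absent.

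The choice of VSPA made no use of the difference between the lines, so line 2 was tested against line 1, with limma on the 6 arrays. No VSPA probe set differed. The log2 difference, line 2 minus line 1, was -0.002 at GmaAffx.89772.6.A1_s_at (SE 0.13, adjusted p = 0.999 by limma), with a 95% interval from -0.33 to 0.33. It was 0.003 at GmaAffx.89772.17.S1_s_at (interval -0.39 to 0.40), 0.03 at GmaAffx.89772.6.S1_s_at (-0.28 to 0.34) and -0.11 at Gma.5793.1.S1_s_at (-0.70 to 0.47). These p-values measure technical spread only, since each line is 1 sample. Over all tested probe sets, limma called 0 of 27460 between the lines (0.0%), with 1598 at an unadjusted p under 0.05.

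The profile of each detected VSPA probe set over the 6 arrays was compared with those of 1188 probe sets that carry 1 gene name, by the distance between log2 profiles set to 0 at the control mean. The measure reads the same control difference that brought VSPA forward, so the matches are a description. Nearest to GmaAffx.89772.6.A1_s_at were PM39 (distance 0.193), PM16 (0.230), PARP3 (0.239), GH (0.277) and PM3 (0.279). The PM symbols are seed maturation proteins, and PARP3 encodes a poly(ADP-ribose) polymerase. PM39 had signals of 690 and 710 in the control, 1348 and 1489 in line 1, and 1442 and 1264 in line 2. PARP3 had 1969 and 2315, then 4532 and 4388, then 4948 and 4223. PM39, PARP3 and PM16 shared with this VSPA probe set the higher first array in line 2. At PM16 that gap was 0.05 on the log2 scale, under the median technical gap of 0.15. The 5 matches differed from the control by 0.92 to 1.08 on the log2 scale, and on each of them all 4 RNAi arrays exceeded both control arrays.

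PM16 read 11401 and 10994 in the control, 21572 and 20003 in line 1, and 22034 and 21258 in line 2. GH read 15416 and 16700, then 32351 and 30593, then 29355 and 30619. PM3 read 1715 and 1683, then 3316 and 3459, then 3210 and 3328. In GH and PM3 the second array of line 2 was the higher, the reverse of the VSPA probe set.

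GmaAffx.89772.17.S1_s_at lay nearest to BG7S-2, a basic 7S globulin of seeds, at a distance of 0.447. BG7S-2 read 1356 and 1433 in the control, 6082 and 6583 in line 1, and 6748 and 6967 in line 2. Next were HSP23.9, a small heat shock protein (distance 0.473), and SCB1, a BURP domain protein of the seed coat (0.569). Gma.5793.1.S1_s_at lay nearest to SCB1 (0.432), then to GASA4 of the gibberellin-stimulated peptide family (0.447) and to a second probe set of HSP23.9 (0.489). SCB1 read 278 and 248, then 1157 and 1157, then 1258 and 1153. GASA4 read 147 and 116 in the control, 657 and 591 in line 1, and 581 and 580 in line 2. That second HSP23.9 probe set read 165 and 156 in the control. SCB1, GASA4 and that probe set all shared with Gma.5793.1.S1_s_at the lower second control array. That array also had the lower median signal over all probe sets, 57.8 against 62.1. At the second HSP23.9 probe set the gap was 0.08, under the median technical gap of 0.15. Nothing is read from the shared order.

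The flat probe set GmaAffx.89772.6.S1_s_at lay nearest to the bZIP transcription factor gene BZIP98 (distance 0.148), to the gene of a hydroxyisourate hydrolase, HIUHase (0.156), and to 1 probe set of the jasmonate receptor gene COI1 (0.167). Their differences from the control were 0.03, 0.03 and -0.05. The VSPA probe sets themselves were 0.708 apart at the closest, Gma.5793.1.S1_s_at and GmaAffx.89772.17.S1_s_at, and 4.78 apart at the widest, GmaAffx.89772.17.S1_s_at and GmaAffx.89772.6.S1_s_at. Each of the 4 lay nearer to a probe set of another gene than to any other probe set of VSPA. Nearly all of the 1188 candidates were of other genes, so that outcome was likely in advance and nothing is read from it.

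The genes that make or sense jasmonate, and other genes of the vegetative storage system, were compared between the RNAi lines and the control with limma on the 3 sample means. At an adjusted p under 0.05, limma called 1.05% of the 27460 tested probe sets higher in the lines and 0.594% lower. The lists were chosen with earlier results of these data known, so calls among their members are a description and no support for a change. The spread here rests on the difference between the lines alone, with 1 residual degree of freedom. The control is 1 sample, so its own spread between plants is not in these p-values, and every call named below is adjusted at 0.0488 to 0.0497. None of these calls held under quantile normalization, median centring, a pseudocount of 1, no detection filter, robust moderation of the spread or without any 1 RNAi array, under each of which 0 probe sets were called in all. Scaling to the poly-A spikes raised the median of all tested probe sets by 1.52, and the test under it was against no shift. It ended 4 of the calls of lower signal, those of GY2 at Gma.1857.1.S1_s_at, BBI-2, SBPRP and PRP2. Relative to that shift, their differences under it were -1.36, -1.58, -1.37 and -1.45.

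The lipoxygenases of vegetative tissue did not pass the test. LOXB1, whose older name is VSP94, was below background on all arrays at all 4 of its probe sets. VLXB read 219 and 275 in the control, 293 and 336 in line 1, and 260 and 294 in line 2 at Gma.17610.1.S1_at, a log2 difference of 0.25 (adjusted p = 0.269). Its other probe set, Gma.17610.1.S1_x_at, read 200 and 241, then 321 and 269, then 346 and 377, a difference of 0.54 (adjusted p = 0.137). VLXC read 123 and 87.9, then 79.4 and 41.3, then 80.0 and 57.7, a difference of -0.61 (adjusted p = 0.0874). Of the 3 tested probe sets 2 were above 0 and 0 were called, with a median of 0.25 beside 0.02 over all tested probe sets. Among 8 tested probe sets of other lipoxygenases 0 were called, and the median was -0.22. LOX3, a lipoxygenase abundant in seeds, measured -0.27 and -0.22 at its probe sets. LOC547835 measured -0.46, -0.43 and -0.19 at its tested probe sets. Of the 8, 1 lay above 0, LOX9 at Gma.11166.1.S1_x_at, with 1.18. That probe set was below background on both control arrays and was detected only through line 2. Its bound of at least 0.993-fold neither shows a rise nor excludes one, and the other LOX9 probe sets were not detected.

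Of 16 tested probe sets of jasmonate synthesis and signalling, 1 was called higher and 0 lower, with a median of 0.15. The median relative to all tested probe sets became -0.05 under scaling to the poly-A spikes. The call was CYP74A1, an allene oxide synthase, the enzyme that commits a lipoxygenase product to jasmonate synthesis. It read 1442 and 1446 in the control, 3739 and 3576 in line 1, and 3230 and 3610 in line 2, with a log2 difference of 1.28 (SE 0.11, adjusted p = 0.0497). All 4 RNAi arrays exceeded both control arrays. AOS2, another allene oxide synthase, read 130 and 92.8, then 158 and 149, then 136 and 135, a difference of 0.35 (adjusted p = 0.17).

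The receptor gene COI1 gave 5 tested probe sets. Gma.4474.1.S1_s_at had the largest difference, 0.54, with signals of 154 and 178, then 229 and 237, then 273 and 255 (adjusted p = 0.0962). The other COI1 probe sets lay between -0.05 and 0.20. LOC100800036, whose older name is AOC2, an allene oxide cyclase, read 729 and 685, then 548 and 603, then 581 and 472, a difference of -0.36 (adjusted p = 0.147).

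Acid phosphatases, mostly of the purple acid phosphatase family, which is distinct from that of the vegetative storage proteins, were listed too. Of 5 tested probe sets 0 were called, and the median was 0.15. The largest difference was at PAP02, with 1972 and 1831 in the control, 3018 and 2960 in line 1, and 2953 and 2895 in line 2, a log2 difference of 0.63 (SE 0.10, adjusted p = 0.0666). PAP3 measured 0.16 and 0.15 at its probe sets and PAP14 0.13.

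Genes of nitrogen assimilation, 15 tested probe sets, had a median of -0.15 and 0 calls. ASP1 read 6821 and 6554 in the control, 3643 and 3891 in line 1, and 3778 and 3742 in line 2, a difference of -0.83 (adjusted p = 0.0554). The glutamate dehydrogenase gene GDH1 measured -0.68 and -0.83 at its detected probe sets (adjusted p = 0.0683 and 0.0565). LOC547953 at Gma.4375.1.S1_at was below background on both control arrays and so detected only through the lines. Its signal there was higher by at least 1.78-fold, which is no support for a change, as it entered through the lines where it is high. The other probe sets of this gene alone were not detected, and Gma.4375.1.S1_s_at, shared with LOC548082, measured -0.15.

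Of 13 tested probe sets of sugar transport and sucrose metabolism, 1 was called higher and 0 lower, with a median of 0.19. SWEET24, a sugar transporter gene, rose from 381 and 408 in the control to 2946 and 2988 in line 1 and 3012 and 2728 in line 2, a log2 difference of 2.84 (SE 0.10, adjusted p = 0.0488). SWEET13 measured 0.78 (adjusted p = 0.0646). SWEET29 lay on the other side, with -0.66, and was below background on every array of both lines. Its bound of at least 0.949-fold does not show a fall. In the wound and defence list, 3 probe sets were tested and 1 was called, WIN, a wound-induced protein gene. WIN rose from 653 and 622 to 1629 and 1700 in line 1 and 1757 and 1714 in line 2, a difference of 1.39 (SE 0.10, adjusted p = 0.0488). PAL2.1, for phenylalanine ammonia-lyase, measured 0.48 at one probe set and -0.56 at another (adjusted p = 0.0913 and 0.0805).

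Seed storage genes went both ways around VSPA. Of 9 glycinin probe sets, 1 lay above 0 and the others below it, with a median of -0.84. GY3 read 17948 and 20903 in the control, 1892 and 1640 in line 1, and 1680 and 1879 in line 2, a difference of -3.44 (adjusted p = 0.0488). GY7 lay on the other side, with 264 and 313, then 588 and 672, then 593 and 576, a difference of 1.04 (adjusted p = 0.0526). Of 4 tested beta-conglycinin probe sets 0 lay above 0, and the list median was -1.49. Those of CG-BETA-1 fell by 2.05 and 2.17 on the log2 scale.

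Among 15 tested probe sets of other seed proteins 7 lay above 0, with a median of -0.20 that became 0.03 under quantile normalization. The basic 7S globulin BG7S-2 rose by 2.23 on the log2 scale, close to the 2.37 of GmaAffx.89772.17.S1_s_at, and the biotin-containing seed protein SBP65 rose by 1.71. The Bowman-Birk protease inhibitor gene BBI-2 read 395 and 387, then 110 and 138, then 161 and 98.7, and fell by 1.53. Of the same families, BBI-1 measured 0.96 at a probe set detected through the lines alone, BBI -0.265 and BG7S-1 0.085.

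VSPA is a leaf-type protein, so markers of green tissue were summed beside it. Over all 19 leaf or green tissue probe sets the summed signal was 205399 to 212862 on the control arrays, 161255 to 174998 in line 1 and 162935 to 203048 in line 2, so every RNAi array lay below both control arrays. Of the 16 tested, 1 was called higher and 0 lower, with a median of -0.19, and 1 of the 19 was below background on all arrays. The call was ELIP, an early light-induced protein gene, with 194 and 145, then 447 and 370, then 393 and 412, a difference of 1.19 (adjusted p = 0.0497). LOC547819 measured -0.69 and -0.66 and the Rubisco activase gene RCABETA -0.48.

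Of the 12 seed coat probe sets 8 were tested, with 2 called higher, 2 called lower and a median of 0.15. Their summed signal was 23098 to 24379 in the control, 12901 to 13347 in line 1 and 12947 to 14145 in line 2, and 4 were below background on all arrays. The cell wall protein gene PRP2 fell by 1.51 at Gma.79.1.S1_s_at and by 1.16 at Gma.79.1.S1_x_at, with the call at the former only. SBPRP, another cell wall protein gene, fell by 1.43. SCB1 rose by 2.103, and the dihydroflavonol reductase gene DFR1 was higher by at least 1.8-fold. DFR1 was below background on both control arrays and so entered the test only through the lines where it is high. Its call, 1 of the 2 higher ones, is therefore no support for a change. Both the green tissue and the seed coat sums moved with the contrast in which VSPA was higher, and their part in the VSPA values was not tested.

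Over all tested probe sets, the 10th and 90th percentiles of the difference from the control were -0.49 and 0.57. Above the latter lay 3 of the 4 detected VSPA probe sets, 1 of 3 in the wound and defence list, 3 of 13 in the sugar list, 3 of 15 other seed proteins, 4 of 8 seed coat probe sets, 1 of 16 in the jasmonate list and 0 of 3 vegetative lipoxygenases. Below the former lay 5 of 9 glycinin probe sets, 4 of 4 of beta-conglycinin, 3 of 15 in the nitrogen list, 3 of 8 seed coat probe sets, 1 of 3 in the wound and defence list, 1 of 3 vegetative lipoxygenases, 1 of 13 in the sugar list, 1 of 15 other seed proteins, 0 of 16 in the jasmonate list and 0 of the VSPA probe sets. Above the 90th percentile also lay 1 of 9 glycinin probe sets, 1 of 15 in the nitrogen list and 1 of 16 of green tissue. So did 1 of 5 acid phosphatases and 1 of 8 other lipoxygenases, with 0 of either below the 10th. Below the 10th percentile also lay 2 of 16 of green tissue. The seed coat, wound and defence, sugar, other seed protein, glycinin, nitrogen and green tissue lists thus had members at both ends. The VSPA share is a description, since the gene was selected on this difference.

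The VSPA differences were then followed across processing settings. Under each of the settings tried, GmaAffx.89772.17.S1_s_at stayed between 1.98 and 2.54, Gma.5793.1.S1_s_at between 1.59 and 2.29, and GmaAffx.89772.6.A1_s_at between 0.90 and 1.05. GmaAffx.89772.6.S1_s_at ran from -0.24 to 0.05 and so had no stable sign. The poly-A values in these ranges are relative to the median of all tested probe sets, which scaling to those spikes raised by 1.52. Before that shift was taken off, each of them was higher. Against 2.37, 2.04, 0.98 and -0.02 as deposited, quantile normalization gave 2.30, 1.96, 0.95 and -0.11 for the probe sets in the same order. The pseudocount moved the dim control values most: at Gma.5793.1.S1_s_at the difference was 2.24 with a pseudocount of 1 and 1.59 with 64. The order of the 4 differences was the same in every setting.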

How the data were processed

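The deposited values are 1 linear signal (intensity) per probe set and array. The authors' scaling software is not given in the sources used here; on every array the mean without the top and bottom 2% was 500.1. The control, RNAi line 1 and RNAi line 2 had 2 technical replicate arrays each, as the labels state. Gene symbols came from the platform annotation, updated through the RefSeq gene table (Glycine_max_v4.0, names only): of 37593 soybean probe sets 8677 had 1 symbol, 370 several and 28546 none, and 9000 of the 9047 annotated ones were found in the table.

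Signals were taken as log2(signal + 16) and tested with limma 3.58.1 in R 4.3.3, with Benjamini-Hochberg adjustment over 27460 detected soybean probe sets and a threshold of 0.05. RNAi lines against control used the 3 sample means (arrays averaged first). Line 2 against line 1 used the 6 arrays. A probe set below background on both arrays of a group has only a bound there, computed, per array, against the higher of the background bound and the probe set's own signal, and written as at least N-fold. In a simulation for each comparison, 103 probe sets were changed 2-fold and 97 were changed 4-fold. The fit of RNAi lines against control recovered 97.1% and 100.0% of these, and made 75 false calls. Its share of false calls there was thus above the threshold of 0.05, a limit on every call between the lines and the control. The fit of line 2 against line 1 recovered 59.2% and 96.9%, and made 10 false calls.

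VSPA and the gene lists were chosen with earlier results of these data known. The text names every VSPA and VSPB probe set and the 5 (brightest VSPA probe set) or 3 most similar named probe sets. In each list it names some or all of the members with the largest differences. Deviations of same-numbered arrays from their sample means correlated at 0.02, -0.01 and 0.02 between samples, so the numbers do not pair the arrays. The alternatives tried were quantile normalization, median centring, scaling to 24 poly-A spike probe sets, pseudocounts of 1 and 64, no detection filter and one at the 99th percentile, an intensity trend, robust moderation, a random block for the sample, and leaving out each array.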

Additional observations from a re-analysis of the deposited data

How the results depend on the processing

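The count of 451 probe sets called between the RNAi lines and the control changed with the settings. It was 0 under quantile normalization, median centring, a pseudocount of 1, no filter and robust moderation, 3547 with a pseudocount of 64, 3323 with the filter at the 99th percentile, 8517 with an intensity trend, 10196 with arrays as replicates and a random block, and 0 to 1884 with 1 array left out (0 without any 1 RNAi array, 1231 and 1884 without the first or second control array). Scaling to the poly-A spikes raised the median of all tested probe sets by 1.52 and gave 26511 calls, 26449 of them higher; differences under it are given relative to that shift. Of the VSPA differences from the control, Gma.5793.1.S1_s_at was 1.82 under poly-A scaling, 2.24 and 1.59 with pseudocounts of 1 and 64, and 1.79 to 2.29 with 1 array left out. GmaAffx.89772.17.S1_s_at was 2.30, 2.34 and 2.21 under quantile, centring and poly-A scaling, 2.54 and 1.98 with the pseudocounts, and 2.25 to 2.48 with 1 array left out. GmaAffx.89772.6.A1_s_at was 0.95 under quantile normalization and under centring, 1.00 and 0.91 with the pseudocounts, and 0.90 to 1.05 with 1 array left out. GmaAffx.89772.6.S1_s_at was -0.11, -0.042 and -0.24 under the 3 scalings and -0.085 to 0.049 with 1 array left out. Between line 2 and line 1, no VSPA probe set was called in any setting, but signs turned: Gma.5793.1.S1_s_at ran from -0.303 to 0.074, GmaAffx.89772.17.S1_s_at from -0.14 to 0.15, GmaAffx.89772.6.A1_s_at from -0.15 to 0.15 and GmaAffx.89772.6.S1_s_at from -0.11 to 0.16 with 1 array left out. GmaAffx.89772.6.A1_s_at was 0.013 under quantile normalization and 0.004 under centring, and GmaAffx.89772.6.S1_s_at -0.04 under quantile normalization. With the array number as a replicate block the count between the lines remained 0, and Gma.5793.1.S1_s_at was -0.11 (adjusted p = 0.988 by limma). Of the 56 other probe sets picked as similar or as list members, 3 that lay near 0 changed sign against the control: BZIP98 (-0.006 to 0.072 with 1 array left out), HIUHase (-0.016 under quantile normalization, -0.047 under poly-A scaling, -0.021 to 0.082) and COI1 at GmaAffx.47795.1.A1_at (-0.168 to 0.063). All 19 called ones lost the call under each setting that called 0, and 4 lower ones lost it under poly-A scaling, where the test is against no shift: GY2 at Gma.1857.1.S1_s_at (adjusted p = 0.219 by limma), BBI-2 (0.588), SBPRP (0.248) and PRP2 (0.624). Ranked by correlation of profiles in place of distance, 1 of the 5 genes nearest to GmaAffx.89772.6.A1_s_at, PARP3, was again among the first 5, with NRP-B, BZIP77, SOYAP1 and PGMPM18. The cause of these shifts was not tested.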
